A study of Mus musculus with 6 samples.

Results

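Mammalian cells answer a fall in oxygen through HIF, a transcription factor whose alpha subunit is made continuously and destroyed while oxygen is plentiful. Prolyl hydroxylases of the EGLN family use oxygen to mark that subunit for the VHL ubiquitin ligase; when oxygen is short the mark is not placed, HIF binds hypoxia response elements, and its target genes are transcribed. In activated T cells HIF-1 is also raised by antigen receptor and mTOR signals, and its targets favour glycolysis and restrain mitochondrial use of pyruvate. The 10 genes described here were chosen by name from that pathway, with earlier results of these data known. They were Hif1a, which encodes the oxygen-regulated subunit of HIF-1, the hydroxylase genes Egln1 and Egln3, and 7 genes known as HIF targets or hypoxia-induced genes: Ndrg1, Ero1a, Vegfa, Bnip3, P4ha1, Pdk1 and Ankrd37. All 10 were found among the 21362 genes of the count table, and all 10 passed the filter of 1 CPM on average (CPM is a gene's read count per 1000000 scaled reads), as did 11516 genes in all.

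RNA was sequenced from 6 libraries of mouse CD4+ T cells in a series whose stated aim was to set sorafenib, an oral inhibitor of VEGF and PDGF receptors and other kinases, against no sorafenib in regulatory T cells. The labels give a cell type and a running number for each library and no treatment, dose, age, strain or culture, so no library was placed in a group and no treated library was compared with an untreated one. The libraries are named 1 to 6 after the number in their titles, and values given in a row follow that order. Whether each library stands for its own mouse or culture is not in the labels. The 95% intervals are exact Clopper-Pearson ones and cover counting error only. In bulk RNA, fewer cells that express a gene and less of its RNA in each cell cannot be told apart.

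Total counts lay between 32435799 and 36316162. Cd4 lay between 412 and 482 CPM and Cd3e, a T cell receptor chain, between 200.3 and 218 CPM, while Foxp3, the factor that defines regulatory T cells, lay between 7.37 and 13.4 CPM. The scaling factors for library composition were 0.958, 0.959, 0.967, 1.04, 1.04 and 1.03, so the choice between scaled and plain totals touches every value below. Mitochondrially encoded genes took from 1.90% of counts in library 2 to 2.45% in library 4. Of 16 proliferation genes, all 16 had their 3 highest levels in libraries 4, 5 and 6, with a summed level from 802 to 1669 CPM, and Mki67, the proliferation marker, at 80.1, 86.9, 72.7, 203, 209 and 260 CPM. Of the 6 hepatocyte and tumour cell markers looked for, 2 passed the filter and both were highest in libraries 1, 2 and 3. The epithelial adhesion gene Epcam stood at 40.6, 44.6, 46.1, 14.0, 14.0 and 13.4 CPM and the keratin gene Krt18 at 4.57, 3.76, 3.87, 1.29, 1.73 and 1.32 CPM. Alb, Afp, Apoa1 and Krt8 were under the filter, and none of them had libraries 1, 2 and 3 highest. Afp was highest in library 5, at 1.52 CPM, and Krt8 had 1 read, in library 4. The summed level of the 6 ran from 15.5 to 50.9 CPM, with Alb at 0 in library 1 and at most 0.145 CPM. The endothelial and stromal list summed to between 29.2 and 44.5 CPM, mostly Pecam1, and the B cell list to between 4.99 and 8.81 CPM, lowest in library 1. The killer T cell list summed to between 8.52 and 10.1 CPM. The myeloid list summed to at most 12.9 CPM, the NK cell list to 0.900 CPM, and the erythroid and platelet list to 1.24 CPM. Of 10 T cell identity genes 1 ranged 1.5-fold or more, and of 6 regulatory T cell genes 3 did, against 27.6% of all genes above the filter. Of those 3, Foxp3 had its highest levels in libraries 4, 5 and 6, and the other 2 in libraries 1, 2 and 3. Over the 6 genes, 4 had libraries 1, 2 and 3 highest and 1 had libraries 4, 5 and 6. The shares of all genes were 29.1% and 30.3%. The part of these differences in the results below was not tested.

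HIF binds the core ACGTG or GCGTG, and the 250 bases before the annotated start of each gene were searched for it on both strands, with overlapping matches counted once. RefSeq promoters of the mouse assembly GRCm38.p6 were found for 9 of the 10 genes, as 11 entries because Pdk1 and Vegfa each have a second start. Of the 11, 9 held at least 1 core, against 38.6% of the 32851 promoters in the table. Bnip3 held 4, a number reached by 1.49% of all promoters, Ankrd37, P4ha1 and Ero1a held 3 each, Hif1a and Egln1 2 each, Egln3 1, Pdk1 1 at its first and 0 at its second start, and Vegfa 0 at its first and 2 at its second start. A match is a description of sequence and not a bound site, and no match says only that these letters are absent from that window. The sequences of 4 genes are shown 5′ to 3′ on the gene's strand, with matches in capitals, since they pair the most matches (Bnip3) with a first start that has none (Vegfa) and a wide range over the libraries (Ankrd37) with the narrowest (Pdk1). Bases that GENCODE annotates as exonic were left out, which removed 1 of the 3 matches of Ankrd37. Both matches at the second start of Vegfa also lay in exonic bases.
Bnip3, chr7:138909520-138909756, minus strand: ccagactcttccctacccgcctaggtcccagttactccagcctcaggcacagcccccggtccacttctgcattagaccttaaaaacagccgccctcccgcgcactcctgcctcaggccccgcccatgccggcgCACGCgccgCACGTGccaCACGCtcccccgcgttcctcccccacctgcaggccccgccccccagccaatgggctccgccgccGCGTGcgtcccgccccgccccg
Ankrd37, chr8:45999868-46000100, minus strand: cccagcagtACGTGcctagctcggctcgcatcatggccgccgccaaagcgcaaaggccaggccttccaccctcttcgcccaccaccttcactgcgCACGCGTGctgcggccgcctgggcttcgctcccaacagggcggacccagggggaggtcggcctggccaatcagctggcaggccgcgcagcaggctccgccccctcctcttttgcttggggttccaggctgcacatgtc
Pdk1, chr2:71872974-71873223, plus strand: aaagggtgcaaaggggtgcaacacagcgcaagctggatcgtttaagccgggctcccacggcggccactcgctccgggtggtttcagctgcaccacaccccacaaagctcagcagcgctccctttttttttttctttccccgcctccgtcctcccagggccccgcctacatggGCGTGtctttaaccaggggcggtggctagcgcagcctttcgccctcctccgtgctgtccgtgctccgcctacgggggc
Vegfa, chr17:46032378-46032627, minus strand: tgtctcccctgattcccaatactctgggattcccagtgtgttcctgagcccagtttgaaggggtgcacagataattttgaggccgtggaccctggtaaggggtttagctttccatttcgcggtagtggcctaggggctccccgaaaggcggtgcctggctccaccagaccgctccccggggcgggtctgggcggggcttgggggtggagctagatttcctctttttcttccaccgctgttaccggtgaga

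All 10 genes were expressed well above the counting floor in every library, and in all 10 the 3 highest levels were those of libraries 1, 2 and 3. That split of the libraries was known from earlier results of these data. The 10 genes and the gene lists were chosen with those results known. The split, and every count set beside a share of all genes, is therefore given as a description only. Among all genes above the filter, 29.1% had that order and 30.3% had the opposite one, with libraries 4, 5 and 6 highest. The background depends on the scaling: with plain total counts the shares were 18.2% and 46.6%, while the order held for all 10 genes with DESeq2 size factors, plain total counts and the deposited FPKM values. The fold range, the highest library over the lowest on a log2 CPM scale with a prior count of 2, ran from 1.20 for Pdk1 to 2.08 for Ndrg1. It reached 1.5 for 5 of the 10 genes, against 27.6% of all genes above the filter, and 2 for 1 of the 10, against 10.5%. The median fold range was 1.49 for the 10 genes and 1.29 for all genes above the filter. Plain totals or FPKM lowered every one of these fold ranges, leaving 3 genes at 1.5-fold, namely Ndrg1, Ankrd37 and Vegfa, and 0 at 2-fold. With plain totals 30.8% of all genes reached 1.5-fold and 11.2% reached 2-fold, and with FPKM 28.4% and 8.56%. Against that background, of genes averaging 1 CPM or more, 3 of 10 was near the share of all genes. The 10 genes were more abundant than that filter asks, with Ankrd37 lowest at a median of 75.3 CPM. At a minimum mean of 5 CPM with TMM scaling, 1664 of 9605 genes reached 1.5-fold and 450 reached 2-fold.

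**Figure D1:**
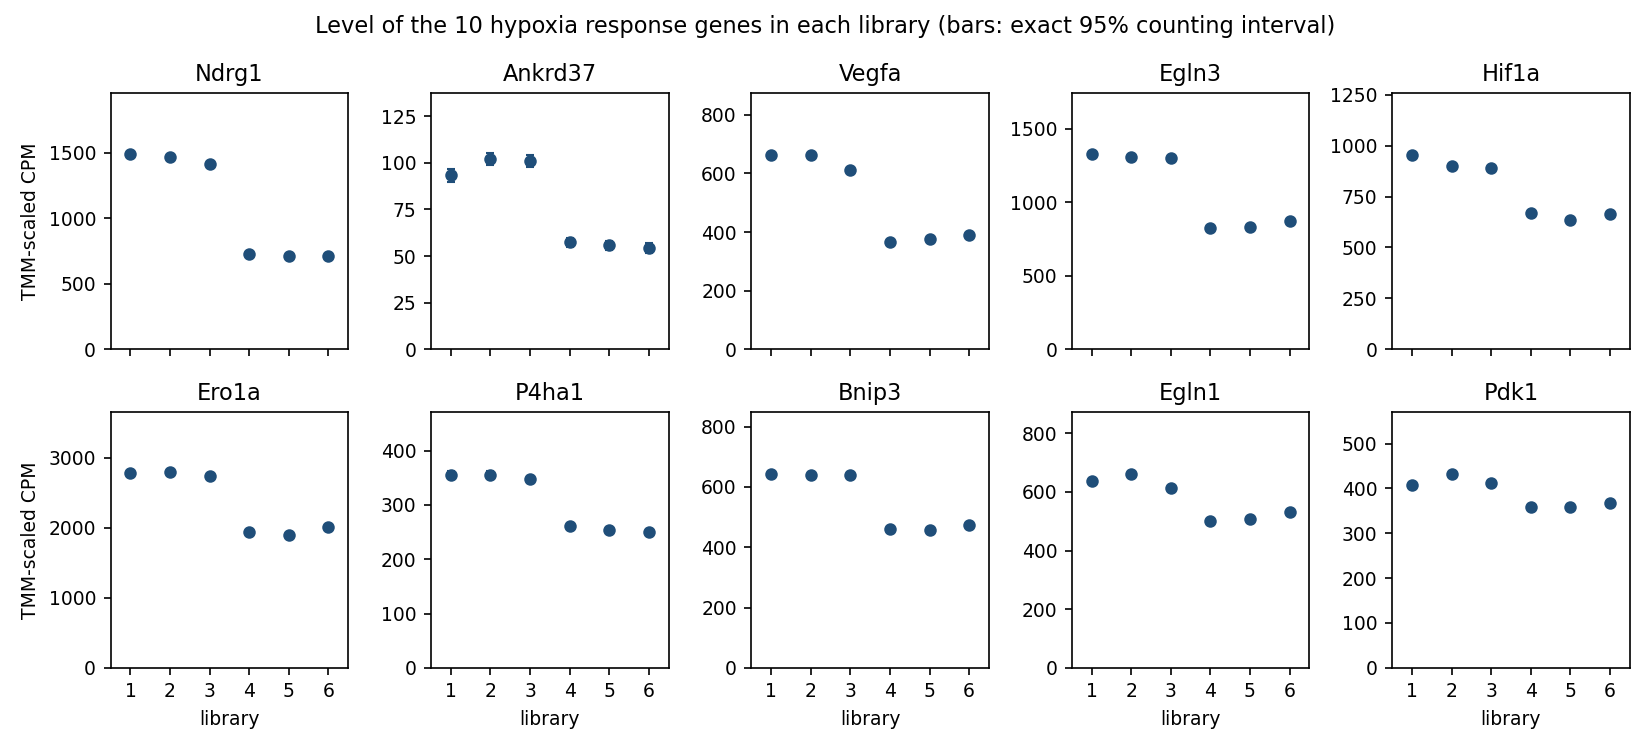
Level of each of the 10 genes (vertical axis, TMM-scaled CPM starting at 0) in libraries 1 to 6 (horizontal axis), with exact 95% counting intervals as bars, often smaller than the points; panels are ordered from the widest fold range to the narrowest. Libraries 1, 2 and 3 held the 3 highest points in every panel, with the smallest fold step in Pdk1, where library 1 stood at 408 CPM and library 6 at 369 CPM.

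Hif1a encodes the subunit whose stability carries the oxygen signal, so its transcript is only one determinant of HIF-1 protein. It stood at 955, 899.6, 891, 669, 634 and 662 CPM, highest in library 1 (95% interval 945 to 966) and lowest in library 5 (626 to 643). Its fold range was 1.51 (counting interval 1.48 to 1.53), just past 1.5, and 1.38 with plain totals. Leaving out library 1 or library 5 took 1 gene off the 5 at 1.5-fold, and no other library did. In the mouse annotation an antisense gene, Gm15283, covers 5.60% of the exonic bases of Hif1a, and that gene itself lay between 5.38 and 6.92 CPM. Gm49321, on the same strand, covers a further 2.51% and was not analysed here.

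The 2 hydroxylase genes ranged by different amounts. Egln1, which encodes PHD2, the main HIF hydroxylase in most cells, stood at 637, 662, 612, 499.7, 508 and 531 CPM, a fold range of 1.33. Egln3 encodes PHD3, a hydroxylase that is itself induced by HIF as feedback, and stood at 1326, 1305, 1299.8, 824, 832 and 872 CPM, a fold range of 1.61. Per gene length, where the scaling of libraries does not enter, the FPKM of Egln3 was 2.43, 2.30, 2.48, 1.93, 1.91 and 1.92 times that of Egln1. The excess of Egln3 over Egln1 was thus larger in libraries 1, 2 and 3 than in the other 3. Hif1a and Egln1 were nearly level, with Hif1a at between 0.898 and 1.08 times the FPKM of Egln1.

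Ndrg1, a hypoxia-induced gene of the NDRG family with roles in stress and differentiation, had the widest fold range of the 10. It stood at 1489, 1472, 1413, 729, 715 and 714 CPM. The counting interval was 1476 to 1503 CPM at the top (library 1), against 706 to 723 CPM at the bottom (library 6). Of the 11516 genes above the filter, 1060 ranged further. The range of 2.08 fell to 1.93 with plain totals or FPKM. Against its fellow genes the level of Ndrg1 also shifted within libraries: its FPKM was 7.91, 7.39, 7.41, 4.40, 4.31 and 4.20 times that of Pdk1, and 1.41, 1.40, 1.34, 0.964, 0.950 and 0.917 times that of Bnip3. These ratios do not depend on how libraries are scaled. Antisense and bidirectional transcripts share exonic bases with Ndrg1, 6.35% with Gm17035 and 2.08% with Gm2895, of which Gm2895 lay between 0.345 and 2.64 CPM and Gm17035 was not analysed here.

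Ankrd37, a small ankyrin repeat gene strongly induced by HIF-1, was the least abundant of the 10 in CPM and had the second widest range. It stood at 93.2, 102, 100.9, 57.3, 55.7 and 54.2 CPM, and its fold range of 1.88 had a counting interval of 1.78 to 1.99. Lrp2bp, a gene on the opposite strand, shares 22.7% of the exonic bases of Ankrd37 but lay at no more than 0.169 CPM in any library. Ufsp2, which shares 3.70%, lay between 33.3 and 36.7 CPM and did not follow the order of Ankrd37.

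Vegfa encodes the growth factor of blood vessels whose receptors are among the kinases that sorafenib inhibits. It stood at 662, 663, 612, 366, 376 and 389.6 CPM, a fold range of 1.81. Libraries 1 and 2 were level within their intervals of 653 to 671 and 654 to 671 CPM, and library 3 was lower, at 604 to 620.1 CPM. The FPKM of Vegfa was 0.828, 0.881, 0.821, 0.655, 0.710 and 0.703 times that of Hif1a. The genes of the VEGF receptor family, Flt1 and Kdr for VEGF-A and Flt4 for VEGF-C and VEGF-D, were under the filter, at no more than 0.225, 0.231 and 0.193 CPM. The co-receptor Nrp1 passed it, at 8.85, 8.30, 8.52, 12.5, 11.6 and 12.1 CPM, an order opposite to that of Vegfa. Nrp2, the other co-receptor, ran from 2.04 to 3.80 CPM. The related ligand gene Vegfb, which is not a classical hypoxia target, stayed between 17.1 and 18.2 CPM.

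Ero1a and P4ha1 belong to protein maturation in the endoplasmic reticulum. Ero1a encodes the oxidase that supplies disulfide bonds and stood at 2783, 2793, 2746, 1935, 1901 and 2015 CPM, a fold range of 1.47. P4ha1 encodes the catalytic subunit of collagen prolyl 4-hydroxylase and stood at 355, 356, 347, 261, 254 and 251 CPM, a fold range of 1.42. The pair kept a nearly fixed proportion, with the FPKM of P4ha1 between 0.134 and 0.145 times that of Ero1a. P4hb, protein disulfide isomerase, which is a partner of both, lay between 796 and 1110.3 CPM, and P4ha2, the second catalytic subunit, ranged 1.59-fold, from 131 to 208 CPM. Ero1b, the paralogue of Ero1a that answers to the unfolded protein response rather than to HIF, lay between 12.2 and 14.6 CPM, with its highest level in library 5.

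Bnip3 and Pdk1 act on mitochondria. Bnip3, a receptor for the removal of mitochondria by autophagy, stood at 644, 640.0, 641, 459.5, 457 and 473 CPM, a fold range of 1.41. Its libraries 1, 2 and 3 lay within each other's counting intervals, from 632 to 653 CPM. Of the 50-base words in the transcripts of Bnip3, 47.2% also occur in transcripts of 6 other annotated genes. The gene model AC160336.1 shares the most of them, and an antisense gene covers 22.3% of the exons of Bnip3. Neither was analysed here. The level of Bnip3 is thus less certain than those of the other genes. Bnip3l, its paralogue with the same role, ranged 1.73-fold, at 707, 684, 648, 422, 407.5 and 422 CPM. Pdk1, the kinase that switches off pyruvate dehydrogenase, had the narrowest range of the 10, with 408, 432, 413, 359, 359 and 369 CPM. Its fold range of 1.20 was exceeded by 7677 of the 11516 genes and was 1.11 with plain totals. With TMM scaling the intervals of library 1, 401 to 415 CPM, and library 6, 362 to 375 CPM, did not overlap. With plain totals they did, at 384 to 398 and 374 to 387 CPM. Pdk3 followed the same order, between 48.2 and 66.1 CPM, while Pdk2, between 3.88 and 5.09 CPM, did not. Pdk4 was scarce, from 15 counts in library 4 to 120 in library 1, a fold range of 8.65 that rests on few reads. Of 7 genes of the pyruvate dehydrogenase complex and its phosphatases, 0 ranged 1.5-fold and 0 had their highest levels in libraries 1, 2 and 3. The shares of all genes above the filter were 27.6% and 29.1%. Pdha1, the subunit that Pdk1 phosphorylates, was highest in libraries 4, 5 and 6, at 136, 129, 130.4, 163, 158 and 165 CPM.

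**Figure D2:**
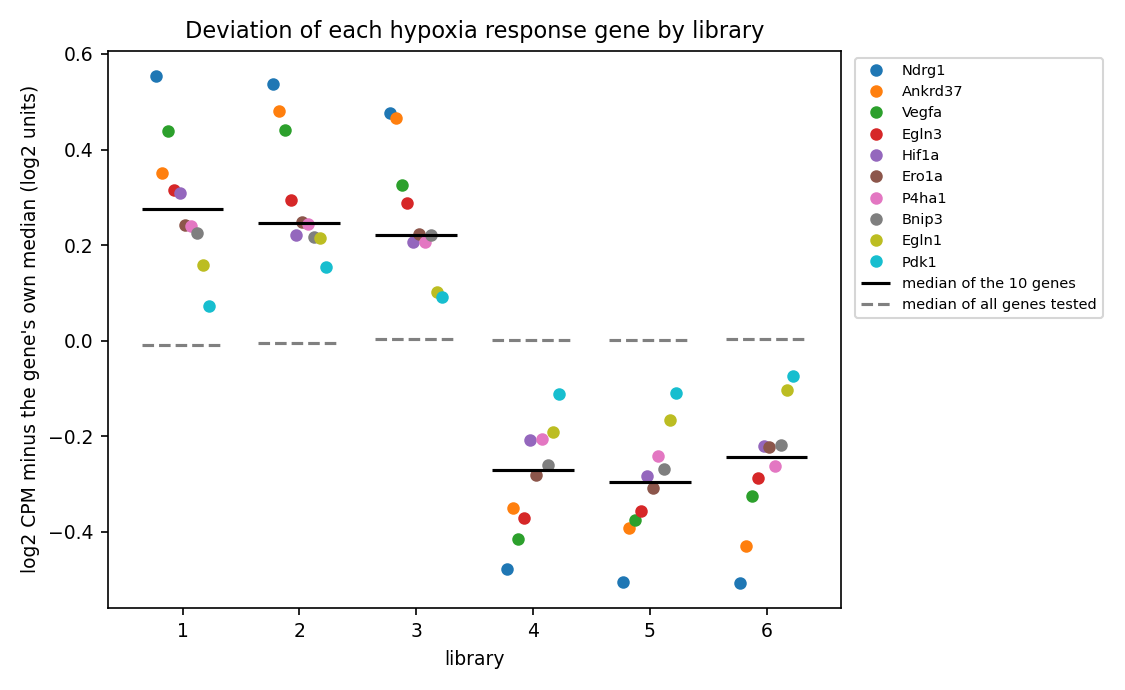
Deviation of each gene from its own median over the 6 libraries (vertical axis, log2 CPM units) by library (horizontal axis), 1 colour per gene; black bars are the median of the 10 genes and dashed grey bars the median of all genes above the filter. The black bars stood at 0.28, 0.25, 0.22, -0.27, -0.30 and -0.24, while the grey bars stayed between -0.01 and 0.00. TMM scaling itself holds the typical gene near 0, so the grey bars mark the scaling and are no independent contrast.

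The 10 genes thus deviated in the same direction in each library but by unequal amounts. Their median deviation from their own medians was 0.28, 0.25, 0.22, -0.27, -0.30 and -0.24 log2 units in the 6 libraries. In every library Ndrg1 lay farthest from its own median and Pdk1 nearest. The highest level fell in library 1 for 4 genes and in library 2 for 6, and the lowest in library 4 for 4, in library 5 for 3 and in library 6 for 3. Together the 10 genes took 0.896%, 0.894%, 0.877%, 0.643%, 0.636% and 0.654% of all counts. This is a share of plain totals, with no factor for library composition.

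**Figure D3:**
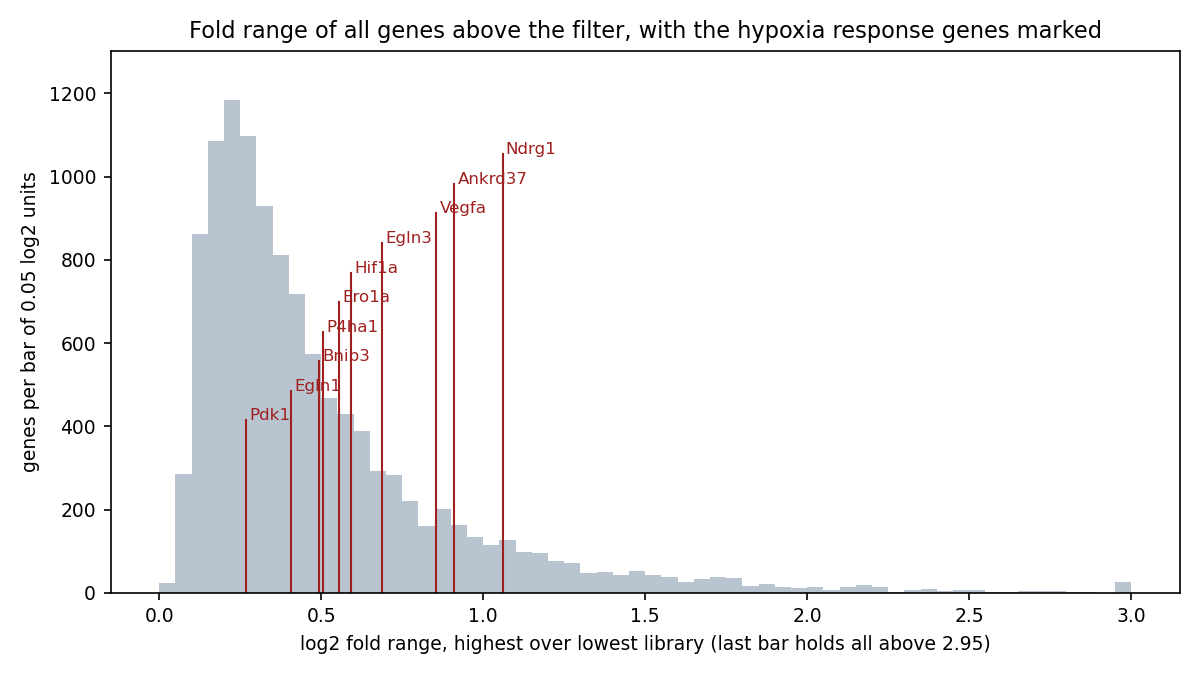
Number of genes (vertical axis) by log2 fold range over the 6 libraries (horizontal axis) for the 11516 genes above the filter, with the 10 genes marked by red lines whose heights only separate the labels. Ndrg1 lay at 1.06 log2 units and Pdk1 at 0.27, and 9 of the 10 lay above the median of all genes, which is a 1.29-fold range.

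Per gene length the order of levels was nearly fixed. Ero1a led in every library, with an FPKM between 449 and 606, and Vegfa, Ankrd37, P4ha1 and Pdk1 followed one another at the bottom of all 6, down to between 59.8 and 66.1 for Pdk1. Ndrg1 was second in libraries 1, 2 and 3, with an FPKM of 494, 488 and 472, and in place 4 in libraries 4, 5 and 6, with 263, 258 and 255, behind Egln3 and Bnip3. Over the 6 libraries the ranges of Ndrg1, from 255 to 494, Egln3, from 279.8 to 413, and Bnip3, from 272 to 353, overlapped, and the top of Ndrg1 also reached into the range of Ero1a. Egln3 nevertheless lay above Bnip3 within each of the 6 libraries, whereas Ndrg1 changed places with both. The ranges of Hif1a, from 133 to 183, and Egln1, from 145 to 177, overlapped as well, and the pair changed places in library 2 and in libraries 4, 5 and 6. Egln1 and Vegfa, whose ranges of 145 to 177 and 91.6 to 152 also overlapped, kept their order in every library, as did Vegfa, Ankrd37, P4ha1 and Pdk1, each of which overlapped the next. A gap lay between Ndrg1, at 255 or more, and Hif1a, at 183 or less.

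**Figure D4:**
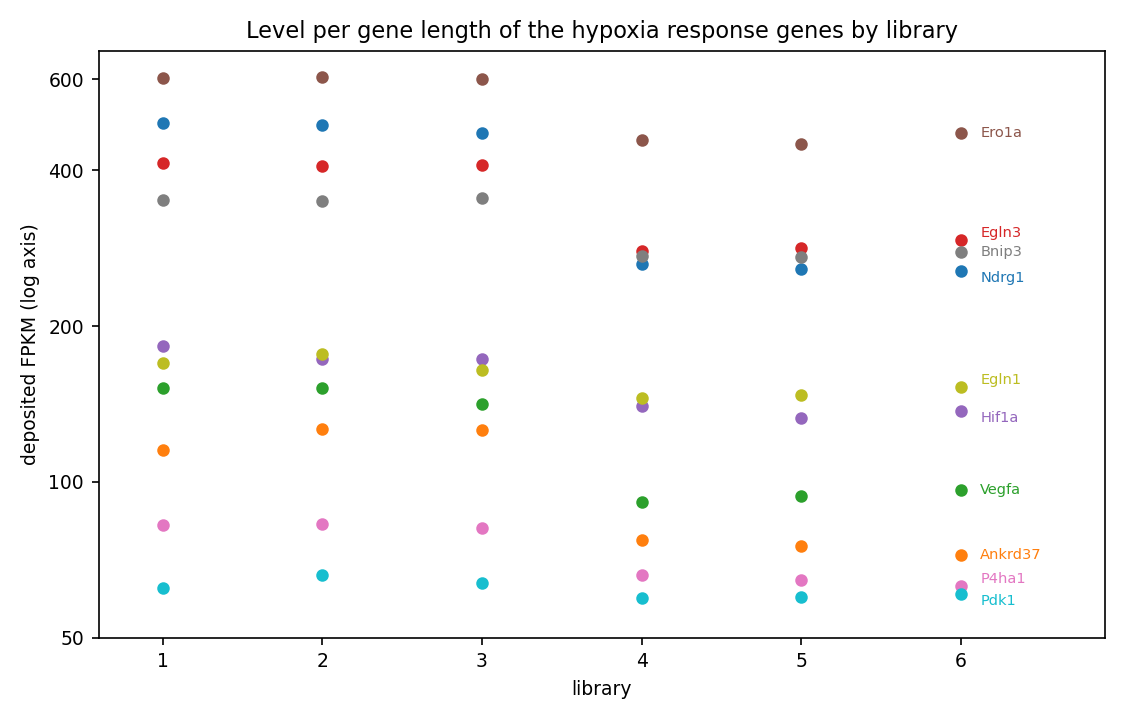
Deposited FPKM (vertical axis, log scale) of the 10 genes in libraries 1 to 6 (horizontal axis), 1 colour per gene with names at the right. Ero1a was highest in all 6 libraries, and Ndrg1, at between 472 and 494 in libraries 1, 2 and 3, lay below Egln3 and Bnip3 in libraries 4, 5 and 6.

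The rest of the oxygen-sensing machinery held no gene above the filter that ranged 1.5-fold, against 27.6% of all genes above it. With a minimum mean of 5 CPM the figure for all genes was 1664 of 9605. Of 9 other HIF subunits and co-activators above the filter, 0 ranged 1.5-fold, and the median fold range was 1.20. With TMM scaling 5 of the 9 had their 3 highest levels in libraries 1, 2 and 3, against 29.1% of all genes. Ep300, the co-activator that binds the alpha subunit and the most abundant of them, lay between 208 and 264 CPM, and Arnt, the partner subunit of HIF-1, between 69.6 and 83.4 CPM. Epas1, which encodes the HIF-2 alpha subunit, lay between 76.4 and 92.2 CPM and was lowest in library 3 and highest in library 6, unlike Hif1a. Of 12 genes of HIF hydroxylation and degradation, 0 ranged 1.5-fold, with a median of 1.17, and 6 of the 12 had the same order of libraries as the 10 genes, against 29.1% of all genes with TMM scaling. The most abundant was Os9, at 184, 172, 177, 134, 136 and 130.2 CPM, and Vhl, the recognition subunit of the ligase, came nearest to 1.5-fold, at 1.46, with 81.6, 88.7, 80.9, 62.3, 60.7 and 64.9 CPM. Egln2, the third hydroxylase, ranged 1.13-fold, between 39.3 and 44.3 CPM. The order of libraries in these lists was not examined with plain totals, where 18.2% of all genes had the order of the 10 genes.

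Other known HIF targets resembled the 10 genes in part. With TMM scaling, 14 of 37 above the filter ranged 1.5-fold or more, which is 37.8% against the 27.6% of all genes. The median was 1.39. Of those 14, 11 had their 3 highest levels in libraries 1, 2 and 3, and 1, the carbonic anhydrase gene Car12, in libraries 4, 5 and 6. Over all 37 these counts were 28 and 2, against 29.1% and 30.3% of all genes with TMM scaling. Plain totals, which lowered the fold range of all 10 genes, were not applied to this list. With them 30.8% of all genes reached 1.5-fold. Adm, the vasodilator adrenomedullin, ranged 2.68-fold, at 45.4, 50.1, 45.3, 18.8, 18.7 and 19.6 CPM, and Cxcr4, a chemokine receptor, 2.11-fold, from 124 to 263 CPM. Ddit4, which restrains mTOR, was the most abundant and lay between 830.0 and 1141 CPM. Others barely moved, such as Mif, a cytokine gene, between 512 and 559 CPM. Car9, a hypoxia marker in tumours, was near the filter at 1.47 to 2.25 CPM.

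All 16 glycolysis genes had their 3 highest levels in libraries 1, 2 and 3, against 29.1% of all genes with TMM scaling. Of the 16, 3 ranged 1.5-fold or more, which is 18.75% and below the 27.6% of all genes. Those were Slc2a3, a glucose transporter, at 1.86-fold, Pgk1 at 1.55-fold and Gapdh at 1.55-fold, both of which have pseudogenes that can share reads. Pkm, the most abundant, lay between 4249 and 5599 CPM. The median fold range of the list, 1.32, was below that of the 10 genes, 1.49. The order and the ranges of this list are those of TMM scaling and were not examined with plain totals.

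**Figure D5:**
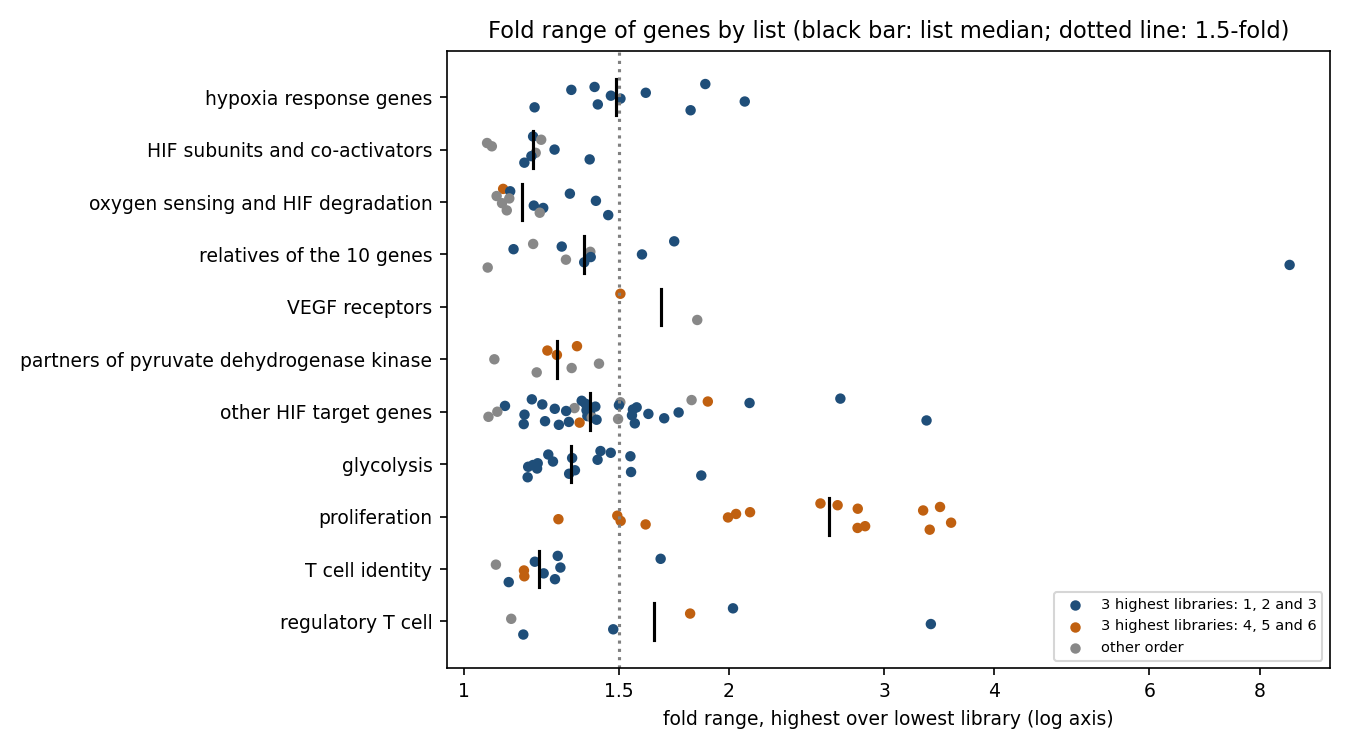
Fold range over the 6 libraries (horizontal axis, log scale) of each gene above the filter, by gene list (vertical axis); colours give which 3 libraries were highest, black bars the list medians and the dotted line 1.5-fold. With TMM scaling, all 10 hypoxia response genes and all 16 glycolysis genes were highest in libraries 1, 2 and 3. All 16 proliferation genes were highest in libraries 4, 5 and 6.

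Likeness of pattern was measured as the largest difference, over the 6 libraries, between the log2 CPM values of 2 genes after each was centred on its own mean, among the 8371 genes that averaged 10 CPM or more. Nearest to Ndrg1 were Atxn7l2, Ppp1r3b, Nrn1, Ust and Ctla4, which differed from it by at most 0.06 to 0.07 log2 units. Ctla4, an inhibitory receptor of T cells, stood at 1526, 1559, 1548, 791, 771 and 809 CPM. Nearest to Hif1a were Tbl1xr1, B4galt1, Satb1, Foxo1 and Naa16, within 0.03 to 0.04 log2 units. Satb1, a chromatin organiser of T cells, stood at 1575, 1477, 1495, 1078, 1067 and 1083 CPM. None of the 10 hypoxia response genes was among the 5 nearest of either.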

How the data were processed

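RNA from 6 libraries of mouse CD4+ T cells was sequenced, after TRIzol extraction and VAHTS Universal V5 library construction, per the labels. GRCm39, HISAT2, fastp, HTSeq, DESeq2 and R 3.2.0 are listed, with no roles, per the submitters' processing notes. The annotation and the strand setting were not given in the sources used here. Per gene, the authors deposited raw read counts and FPKM values; from the values, the FPKM are those counts divided by a gene length and the library total.

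Counts were scaled by TMM in edgeR 4.0.16 (R 4.3.3) to CPM. Log2 values used a prior count of 2, and genes averaging 1 CPM or more were kept. Ranges, counts and exact 95% intervals were computed in Python 3.11.15 with scipy 1.17.1, and the fold range was tested on simulated data. Those data held counting error only, with some genes changed in 1 library each, so they do not model other variation between libraries. A floor of 3 counts stood for at most 0.0966 CPM. With no groups in the labels, no test between libraries was made. Promoters came from RefSeq, and exon overlaps and shared 50-base words from GENCODE M21; both are of GRCm38, so no coordinate of theirs was joined to the counts. A promoter of Ndrg1 was not analysed here.

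The 10 genes and all gene lists were chosen with earlier results of these data known. Genes outside the 10 were named by rule: the most abundant gene of each list, up to 3 of at least 1.5-fold with the widest range, and the 5 nearest in pattern to Ndrg1 and to Hif1a, with Cd4, Cd3e, Foxp3 and Mki67 fixed by name. Genes that share exonic bases with a member were named for that overlap. A gene that the rule also named is not reported here. Vegfb, Vegfc, Vegfd, Flt1, Kdr, Flt4, Ero1b, Pdk2, Pdk3, Arnt, Epas1, Vhl, Egln2, Mif, Car9, Car12, Pgf, Epcam, Krt18, Krt8, Alb, Afp, Apoa1 and Pecam1 were added after their values were seen. Alternatives were DESeq2 1.42.0 size factors, plain totals, FPKM with a pseudocount of 0.1, a prior count of 0.5, an average of 5 CPM or no filter, mitochondrially encoded genes left out, and each library left out in turn.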

Additional observations from a re-analysis of the deposited data

How the results depend on the processing

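With plain total counts, 3 of the 10 genes ranged 1.5-fold or more and 0 ranged 2-fold, and the median fold range was 1.37; the deposited FPKM values gave the same 3, 0 and 1.37. Of all genes, 3547 of 11523 (30.8%) and 1289 (11.2%) reached these folds with plain totals, and 3259 of 11472 (28.4%) and 982 (8.56%) with FPKM. At the filter of 1 CPM, 3 of 10 was thus near the share of all genes. Every library's values shift together under a scaling, by between -0.06 and 0.06 log2 units for plain totals against TMM, which is what lowers these ranges. The median was 1.52 with DESeq2 size factors, and the counts of 5 and 1 were the same there, with a prior count of 0.5, with either filter, and without mitochondrially encoded genes. Leaving out each library in turn gave between 4 and 5 genes at 1.5-fold and 1 at 2-fold, with medians from 1.44 to 1.49. Among all genes with TMM scaling, a minimum mean of 5 CPM gave 1664 genes at 1.5-fold and 450 at 2-fold of 9605, and no filter gave 11757 and 6870 of 21362. Depth was not limiting for the 10 genes, whose lowest count was 1929, of Ankrd37 in library 6. The order of libraries and the median fold range were examined under these scalings after the data had been seen.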

Other observations

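With TMM scaling, the values of each of the 10 genes fell into 2 separate clusters of 3 libraries, 1, 2 and 3 above and 4, 5 and 6 below, and the labels put neither cluster in a group. For Ndrg1, with 1489, 1472, 1413, 729, 715 and 714 CPM, the third highest library was 1.94 times the fourth, while the 3 upper libraries spanned 1.05-fold and the 3 lower ones 1.02-fold. The same step was 1.63-fold for Ankrd37, 1.57-fold for Vegfa, 1.49-fold for Egln3, and between 1.33-fold and 1.36-fold for Ero1a, Bnip3, Hif1a and P4ha1. It was 1.15-fold for Egln1, with 637, 662, 612, 499.7, 508 and 531 CPM, and 1.11-fold for Pdk1, with 408, 432, 413, 359, 359 and 369 CPM. In Pdk1 the upper libraries spanned 1.06-fold, close to the step itself. With the deposited FPKM values the step of Pdk1 was 1.03-fold, smaller than the 1.06-fold span of its upper libraries, and that of Egln1 was 1.08-fold beside a span of 1.07-fold, so neither formed separate clusters there. The FPKM steps of the other 8 genes lay between 1.23-fold and 1.79-fold.

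Within the family of mitophagy receptors both members had the same order, and Bnip3l ranged further than Bnip3, 1.73-fold against 1.41-fold. Among the placental and vascular growth factors the scarce Pgf, with 41, 34, 23, 5, 8 and 17 counts, also had its highest levels in libraries 1, 2 and 3, with Vegfb level throughout. Vegfd, with 0, 0, 0, 1, 6 and 4 counts, had the opposite order. Vegfc, with 2, 1, 0, 0, 6 and 1 counts, was highest in library 5. Pgf, Vegfc and Vegfd were all under the filter.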
